A study of Mus musculus with 8 samples.

Results

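Aquaporins are membrane channels that let water pass along osmotic gradients, and some of them, the aquaglyceroporins, also pass glycerol. In secreting and absorbing epithelia they stand beside ion transporters, which set up the gradients that water follows. In the adult stomach, Aqp4 is known from the basolateral membrane of parietal cells, and Aqp5 from glands of the antrum and pylorus. The 8 genes described here (Aqp1, Aqp3, Aqp4, Aqp5, Aqp6, Aqp8, Aqp9 and Aqp11) were taken by symbol from a table of 53170 named genes, and all 8 were found in it. Of these, 5 passed the filter on low counts, which left 14058 tested genes, and Aqp4, Aqp6 and Aqp8 did not.

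Bulk RNA came from 8 libraries of organoids. They were derived from hindstomach (glandular stomach) epithelium of E18.5 mouse embryos and kept in growth medium for 5 days. The 4 YAP5SA libraries have the genotype Shh-Cre;YAP5SA, in which the transgene encodes an active form of YAP, the coactivator restrained by the Hippo kinases. The 4 control libraries have the genotype Shh-Cre, so the recombinase, which is expressed in foregut endoderm, is shared by both groups. The labels give neither the promoter of the transgene nor the number of embryos or cultures behind each group. The p-values set the difference between the groups against the spread among libraries of a group, and that spread may be technical. Single cells, and organoids from differentiation medium, are not analysed here.

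Total counts per library lay between 15340264 and 17883861 in YAP5SA and between 13672268 and 19710648 in controls, so that 1 count was worth 0.0509 to 0.075 CPM (read counts scaled to a common library size). The simple epithelial genes Epcam, Cdh1, Krt8, Krt18 and Krt19 summed to between 6150 and 6400 CPM in YAP5SA and between 7450 and 7980 CPM in controls. Endogenous Yap1 averaged 153.3 ± 4.2 CPM in YAP5SA and 160.0 ± 7.2 CPM in controls (SD, n = 4 each). Reads of the transgene may not count on that gene, so it is no check of the labels. Xist, the RNA of the inactive X chromosome, lay between 0.412 and 2.76 CPM in YAP5SA and between 675.6 and 1049 CPM in controls, and the Y-linked gene Ddx3y had 4843 counts in YAP5SA and 6 in controls. Sex and genotype therefore cannot be told apart in any difference below. All 8 aquaporin genes lie on autosomes.

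The comparison asks how aquaporin RNA differs between organoids with and without the YAP5SA transgene. Aqp1, Aqp3 and Aqp5 rose in YAP5SA organoids, Aqp11 fell, and Aqp9 did not pass the test. Among the aquaporins the largest change was that of Aqp1, the water channel known from red blood cells, capillary endothelium and the kidney proximal tubule, which averaged 126.0 ± 59.3 CPM in YAP5SA and 2.14 ± 0.30 CPM in controls. Aqp5, a channel of the apical membrane of gland cells, was the most abundant aquaporin in both groups, with 667.5 ± 63.7 CPM in YAP5SA and 320.5 ± 15.8 CPM in controls. Of the 5 tested aquaporins, 4 passed the edgeR quasi-likelihood test (Benjamini-Hochberg adjusted p under 0.05 over all tested genes), 3 higher and 1 lower, where 49.1% of all tested genes passed, 23.6% higher and 25.5% lower. For the same 4 genes the YAP5SA and control libraries were fully separated, 3 upward and 1 downward, as they were for 45.7% of all tested genes, 21.8% upward and 23.9% downward. With changes this common across the genome, the count of 4 says little about the family. The median log2 fold change of the 5 tested aquaporins was 1.06, and that of all tested genes was 0.00412.

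**Figure D1:**
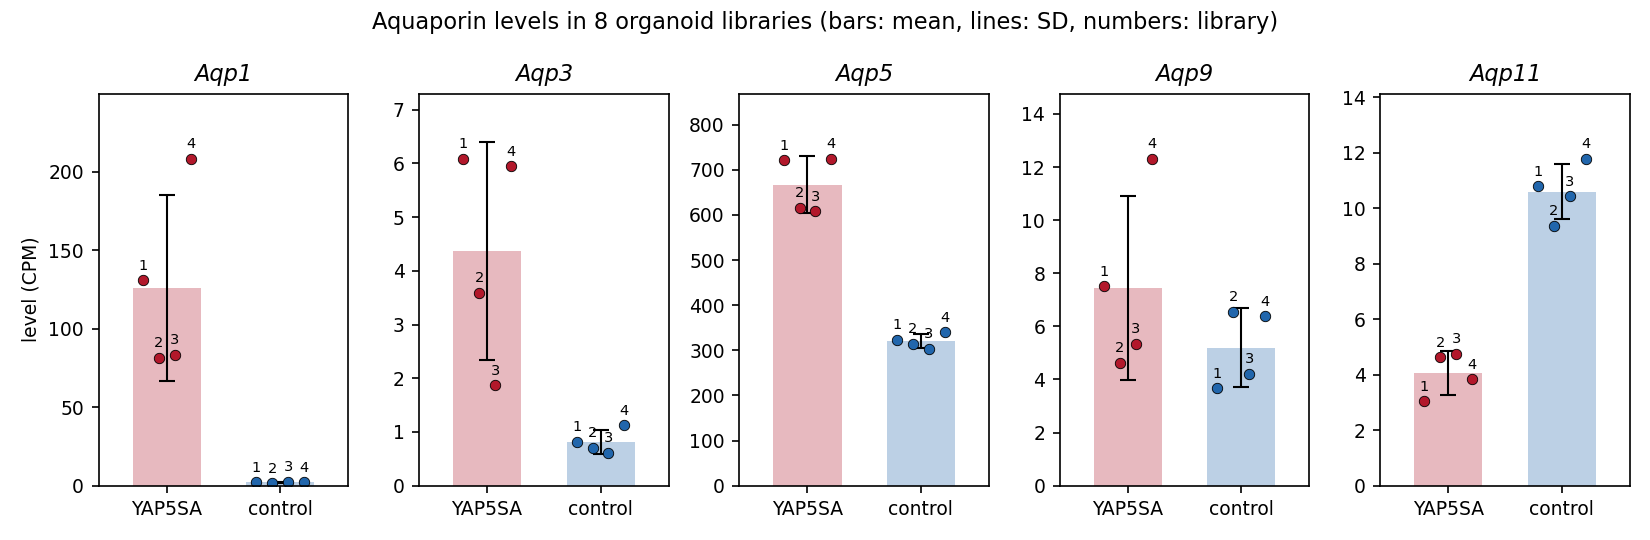
Levels of the 5 tested aquaporins in CPM (vertical axes, linear, each gene on its own scale) in the 4 YAP5SA and the 4 control libraries; points are libraries numbered as labelled, bars are means and lines are SD. The groups stand apart for Aqp1, Aqp3, Aqp5 and Aqp11 and overlap for Aqp9, and YAP5SA libraries 1 and 4 lie above libraries 2 and 3 for Aqp1, Aqp3, Aqp5 and Aqp9.

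Aqp1 was counted 2022, 1476, 1296 and 3533 times in YAP5SA libraries 1 to 4, against 36, 32, 48 and 28 times in control libraries 1 to 4. On the common scale it stood at 131, 81.5, 83.4 and 208 CPM in YAP5SA, and at 2.27, 1.73, 2.44 and 2.10 CPM in controls. All YAP5SA libraries were far above all controls, and the lowest YAP5SA library was 33.4 times the highest control. The log2 fold change was 5.87 ± 0.49 (SE), or 58.7-fold (adjusted p = 6.84e-05, edgeR quasi-likelihood test). Only 22 genes that were called higher had a larger fold change. They include the Y-linked genes Ddx3y, Kdm5d, Uty and Eif2s3y (log2 fold changes 9.57, 9.79, 10.15 and 10.28), which follow the sex of the libraries.

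The level of Aqp1 was uneven among YAP5SA libraries. Its highest value there was 2.55 times its lowest, while in controls the highest was 1.41 times the lowest. The coefficient of variation in YAP5SA was 47.1%. Among the 3006 tested genes whose mean YAP5SA level lay within a factor of 2 of that of Aqp1, the median was 4.1%, and 0 genes varied more. YAP5SA library 4 carried the highest Aqp1 level, and without it the log2 fold change was 5.52.

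Aqp1 is also a gene of endothelial and red blood cells, so their markers are given beside it. The 7 endothelial markers (Pecam1, Cdh5, Kdr, Tek, Tie1, Emcn and Plvap) summed to between 1.35 and 3.00 CPM in YAP5SA and between 6.82 and 14.1 CPM in controls. Cdh5 and Pecam1, the junctional cadherin and adhesion molecule of endothelium, averaged 0.0147 and 0.0809 CPM in YAP5SA, against 0.0323 and 0.194 CPM in controls. Of the other endothelial markers, Tie1 rose from low counts (1.65 ± 0.38 CPM in YAP5SA, 0.0429 ± 0.0528 CPM in controls) and Tek fell. The 7 erythroid markers, with 5 of them detected in YAP5SA and 4 in controls, summed to between 0.177 and 0.906 CPM in YAP5SA and between 0.255 and 0.825 CPM in controls, and Hba-a2 and Slc4a1 had 0 counts in all libraries. The control endothelial sum was nearly all Tek, which averaged 0.317 ± 0.259 CPM in YAP5SA and 8.88 ± 2.98 CPM in controls. Without Tek, left out after seeing the data, the other 6 markers summed to between 1.29 and 2.40 CPM in YAP5SA, most of it Tie1. In controls they summed to between 0.509 and 1.13 CPM, so the direction of the sum turned. That turn came from Tie1. Kdr averaged 0.0324 CPM in YAP5SA and 0.344 CPM in controls, and Pecam1, Cdh5, Emcn and Plvap also averaged lower in YAP5SA, all at low counts. The erythroid sums overlapped. The part of endothelial and red blood cells in the rise of Aqp1 was not tested.

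Aqp5 stood at 721, 616, 608.5 and 724 CPM in YAP5SA libraries 1 to 4, against 323, 314, 303 and 341 CPM in control libraries 1 to 4. Every YAP5SA library was above every control, by at least 1.79 times. The log2 fold change was 1.06 ± 0.06 (SE; adjusted p = 1.76e-10, edgeR quasi-likelihood test). Of 6 tested genes listed for neck and gland mucous cells, a list without Aqp5, most went the other way. Wfdc2, which encodes a secreted protein, rose (645.9 ± 23.5 CPM in YAP5SA, 323.2 ± 14.7 CPM in controls). The other 5 (Muc6, Gkn3, Glipr1, Tff2 and A4gnt) fell, where 25.5% of all tested genes were called lower. Muc6, the mucin of the glands, averaged 0.343 ± 0.205 CPM in YAP5SA and 62.2 ± 21.5 CPM in controls, and Gkn3, a gastrokine gene of mucous neck cells in the mouse, averaged 0.934 ± 0.431 CPM in YAP5SA and 319.4 ± 79.2 CPM in controls. Aqp5 is also known from alveolar epithelium. Of 9 airway and alveolar markers, Nkx2-1 and Scgb3a2 had 0 counts in all libraries, and the summed level, 103 to 128 CPM in YAP5SA and 27.0 to 34.5 CPM in controls, was nearly all Hopx. In bulk RNA, a change in the number of cells of a type and a change in RNA per cell cannot be told apart.

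Aqp3, an aquaglyceroporin known from the basolateral membrane of epithelia and from keratinocytes, stood at 6.08, 3.59, 1.87 and 5.95 CPM in YAP5SA libraries 1 to 4, against 0.821, 0.704, 0.611 and 1.13 CPM in control libraries 1 to 4. These levels rest on 94, 65, 29 and 101 counts in YAP5SA, against 13, 13, 12 and 15 counts in controls. The groups did not overlap, although YAP5SA library 3 came within 1.66 times the highest control. The log2 fold change was 2.45 ± 0.36 (SE; adjusted p = 2.59e-05, edgeR quasi-likelihood test). Of 9 markers of squamous forestomach epithelium, 6 were tested, of which Krt4, Krt6a and Sprr3 rose and Ivl fell. Krt13 and Dsg3 missed the threshold, with log2 fold changes of 0.21 and -0.50. Of all tested genes, 23.6% were called higher and 25.5% lower. The summed level of the 9 markers was 915 to 1040 CPM in YAP5SA and 127 to 182 CPM in controls, most of it Krt4, and the basal markers Krt5 and Trp63 had 0 CPM in YAP5SA and averaged 0.539 and 0.0271 CPM in controls. The part of squamous cells in the rise of Aqp3 was not tested.

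Aqp9, the aquaglyceroporin through which liver cells take up glycerol, stood at 7.51, 4.64, 5.34 and 12.3 CPM in YAP5SA libraries 1 to 4, against 3.66, 6.55, 4.23 and 6.38 CPM in control libraries 1 to 4. The groups overlapped. The log2 fold change was 0.52 ± 0.31 (SE; adjusted p = 0.19, edgeR quasi-likelihood test), and it was 0.16 without YAP5SA library 4, the highest of the 8. Fitted without the filter on low counts, it passed the test (adjusted p = 0.00935, edgeR), but adjusted p from that fit are not on the scale of the main fit. Aqp9 is also known from neutrophils, whose markers S100a8 and S100a9 averaged 0.0471 and 0 CPM in YAP5SA and 0.0158 and 0.0315 CPM in controls.

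Aqp11, a distant member of the family that lies in the endoplasmic reticulum and whose loss gives cystic kidneys in mice, stood at 3.04, 4.64, 4.76 and 3.83 CPM in YAP5SA libraries 1 to 4, against 10.8, 9.37, 10.4 and 11.8 CPM in control libraries 1 to 4. All YAP5SA libraries were below all controls. The gene fell by 1.37 on the log2 scale (SE 0.15; adjusted p = 5.31e-07, edgeR quasi-likelihood test), which is 2.59-fold lower. It was the 1 tested aquaporin whose level was lower in YAP5SA.

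The YAP5SA libraries were split alike for several aquaporins. Libraries 1 and 4 were above libraries 2 and 3 for Aqp1, Aqp3, Aqp5 and Aqp9, and below them for Aqp11. How many of all tested genes follow this order was not counted, so the split is not shown to be particular to aquaporins. The coefficient of variation among YAP5SA libraries was 46.3% for Aqp3 and 46.5% for Aqp9, where tested genes within a factor of 2 of their levels had medians of 15.1% and 11.6%. It was 9.54% for Aqp5 and 19.7% for Aqp11, against medians of 3.3% and 15.9% at their levels. The control libraries were not split in this way: library 4 was highest for Aqp3, Aqp5 and Aqp11, library 3 for Aqp1 and library 2 for Aqp9.

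The 250 bases upstream of the start of Aqp1, Aqp3, Aqp5 and Aqp11 are shown because these 4 genes changed, 3 of them upward together, and their promoters can be compared. They are taken from RefSeq on build GRCm38.p6 and run 5′ to 3′ toward the start, and capitals mark CG dinucleotides.
Aqp1, chr6:55336049-55336298, plus strand: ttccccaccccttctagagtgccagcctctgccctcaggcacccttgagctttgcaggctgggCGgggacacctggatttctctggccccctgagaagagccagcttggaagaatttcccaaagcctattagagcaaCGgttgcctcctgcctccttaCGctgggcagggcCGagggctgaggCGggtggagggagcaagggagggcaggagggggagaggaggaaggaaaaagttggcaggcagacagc
Aqp3, chr4:41098184-41098433, minus strand: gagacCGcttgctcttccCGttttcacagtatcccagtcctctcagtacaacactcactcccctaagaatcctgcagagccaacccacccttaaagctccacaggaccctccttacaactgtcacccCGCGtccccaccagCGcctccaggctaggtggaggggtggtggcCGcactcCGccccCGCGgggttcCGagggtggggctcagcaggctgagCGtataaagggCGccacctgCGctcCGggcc
Aqp5, chr15:99590778-99591027, plus strand: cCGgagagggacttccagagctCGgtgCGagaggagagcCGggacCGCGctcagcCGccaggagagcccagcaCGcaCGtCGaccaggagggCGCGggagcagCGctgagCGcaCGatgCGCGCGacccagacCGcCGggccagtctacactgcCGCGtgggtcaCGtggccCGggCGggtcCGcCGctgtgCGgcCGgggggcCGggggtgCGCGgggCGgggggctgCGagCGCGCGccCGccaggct
Aqp11, chr7:97738248-97738497, minus strand: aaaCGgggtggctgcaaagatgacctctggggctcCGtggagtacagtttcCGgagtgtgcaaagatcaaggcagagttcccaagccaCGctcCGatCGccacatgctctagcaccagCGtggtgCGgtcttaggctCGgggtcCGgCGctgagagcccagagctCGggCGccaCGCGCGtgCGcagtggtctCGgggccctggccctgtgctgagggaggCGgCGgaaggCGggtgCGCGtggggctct

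The windows of the 3 genes that rose differ in base composition. That of Aqp5 holds 38 CG dinucleotides and is 78.4% G and C, that of Aqp3 holds 14 and is 64.0% G and C, and that of Aqp1 holds 5 and is 62.0% G and C. The window of Aqp11 holds 23 and is 67.2% G and C, where the median of 32851 RefSeq windows is 6 CG dinucleotides and 52.4% G and C. The letters GGAATG, the core of the motif of the TEAD factors through which YAP binds DNA, occur on neither strand in any of these 4 windows, while 12.6% of all windows hold them. TGANTCA, the AP-1 motif, read on both strands, is likewise not in the 4 windows and is in 6.75% of all windows. No match says only that these letters are not in this window.

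Levels of different genes were compared per length, as CPM per kb of exon. In YAP5SA the order was Aqp5 (256.8 ± 24.5 CPM per kb), Aqp1 (48.0 ± 22.6), Aqp3 (2.39 ± 1.11), Aqp9 (1.80 ± 0.84) and Aqp11 (0.432 ± 0.085), with the ranges of the neighbours Aqp3 and Aqp9 overlapping. In controls the order was Aqp5 (123.3 ± 6.1 CPM per kb), Aqp9 (1.26 ± 0.36), Aqp11 (1.13 ± 0.11), Aqp1 (0.814 ± 0.116) and Aqp3 (0.446 ± 0.122), and the ranges of Aqp9 and Aqp11 overlapped. Aqp1 thus stood next to Aqp5 in YAP5SA and below Aqp9 and Aqp11 in controls. The place of Aqp11 depends on the length used: its exons span 9418 bases when all gene models are joined and its shortest coding transcript 896, and with the shorter length Aqp11 (4.54 CPM per kb in YAP5SA, 11.8 CPM per kb in controls) came next after Aqp1 in YAP5SA, overlapping Aqp9, and next after Aqp5 in controls.

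The summed level of the 8 genes was 309.4 ± 47.1 CPM per kb in YAP5SA and 127.0 ± 6.4 CPM per kb in controls (SD, n = 4 each). Aqp5 made up 76.4% to 87.3% of that sum in YAP5SA libraries and 96.9% to 97.2% in control libraries. The share of Aqp1 was 15%, 11.4%, 11.8% and 21.7% in YAP5SA libraries 1 to 4, against 0.676%, 0.529%, 0.774% and 0.591% in control libraries 1 to 4. With the shortest coding transcript of each gene as its length, the mean share of Aqp1 was 5.41% in YAP5SA and 0.203% in controls, so its size depends on the length while its order between the groups does not.

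**Figure D2:**
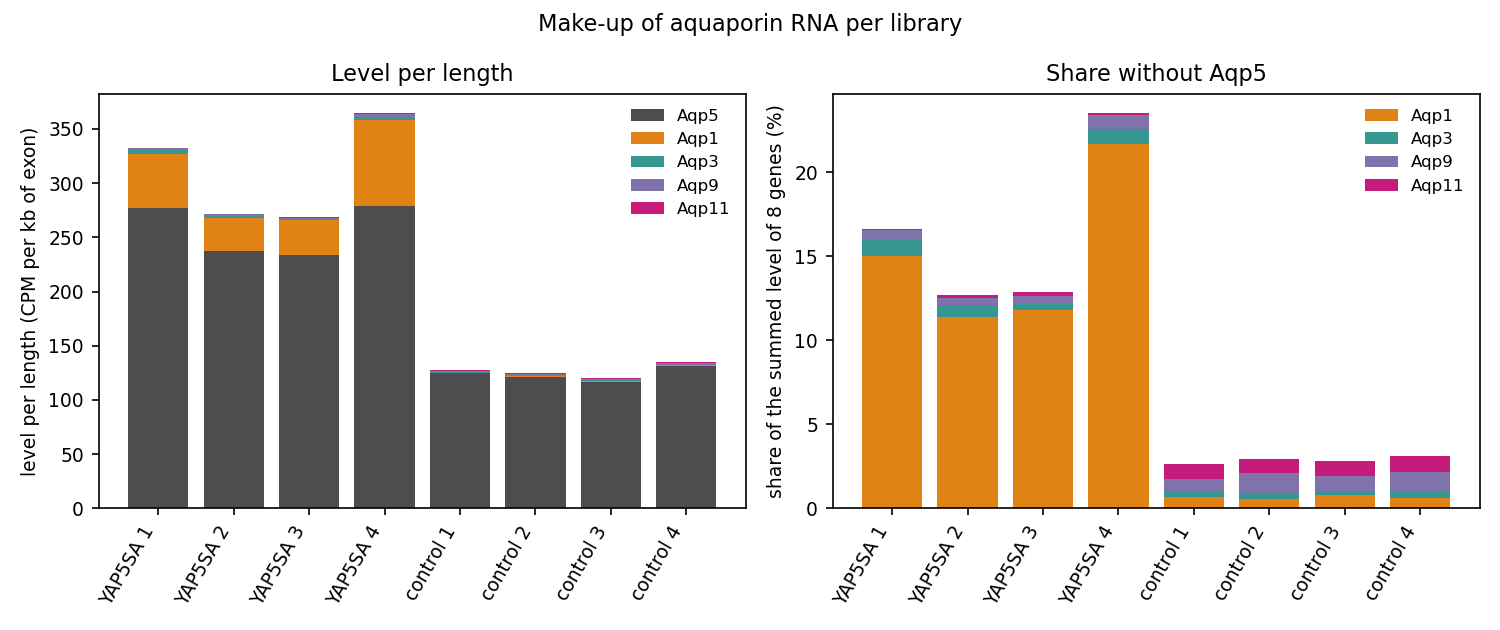
Left, level per length of the 5 tested aquaporins stacked for each library (CPM per kb of exon); right, the same genes without Aqp5 as percent of the summed level of the 8 genes. Aqp5 is the main part of every bar on the left, and Aqp1 takes 11.4% to 21.7% in YAP5SA libraries and under 1% in control libraries.

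The aquaporins that did not pass the filter were close to the limit of detection in both groups. Aqp4, which dystrophin and syntrophins anchor in the membrane of astrocytes, had 0, 3, 1 and 0 counts in YAP5SA libraries 1 to 4, against 8, 2, 3 and 3 counts in control libraries 1 to 4. The ratio of pooled levels, YAP5SA over control, was 0.255 (exact 95% interval 0.0619 to 0.789, counting error only), and a fit without the filter gave an adjusted p of 0.174 (edgeR quasi-likelihood test). The ratio was 0.0877 without YAP5SA library 2 and 0.389 without control library 1, where the interval reached 1.45. Aqp4 is known from parietal cells, and of 10 parietal cell markers 5 were tested, of which Kcnj15, Clic6, Esrrg and Atp4a fell, while Kcnq1 averaged 159.1 ± 14.6 CPM in YAP5SA and 153.2 ± 18.1 CPM in controls. Atp4a and Atp4b, the subunits of the acid pump, averaged 5.40 ± 1.33 and 0 CPM in YAP5SA, against 8.21 ± 0.27 and 0.0510 ± 0.0708 CPM in controls. Of the other parietal markers, Slc26a7 and Cckbr had 0 counts in all libraries. Hrh2 had 3 counts in YAP5SA and 0 in controls, and Kcne2 had 3 in YAP5SA and 35 in controls. All 4 tested chief cell markers (Pgc, Cym, Cblif and Bhlha15) fell. Cym, the most abundant, averaged 2.16 ± 1.22 CPM in YAP5SA and 879.6 ± 191.4 CPM in controls, and Pga5 had 0 counts in all libraries. Of all tested genes, 25.5% were called lower and 23.6% higher. The part of these cells in the Aqp4 counts was not tested. Aqp8, a channel known from colon and pancreas, had 0 counts in YAP5SA and 5 in controls, 4 of them in control library 1. The exact 95% interval of the ratio of pooled levels, for counting error only, ran from 0 to 1.11. Aqp6, known from kidney intercalated cells, had 2 counts in YAP5SA and 1 in controls.

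Another 4 genes of the family are not among the 8 and were all below the filter. Aqp2, the vasopressin-regulated channel of the kidney collecting duct, had 30 counts in YAP5SA and 9 in controls, a ratio of pooled levels of 3.39 (exact 95% interval 1.57 to 8.13, counting error only). Of the 9 control counts, 6 were in control library 1, and without it the ratio was 7.79. The libraries overlapped between the groups, and a fit without the filter gave an adjusted p of 0.0624 (edgeR quasi-likelihood test). Aqp7, the glycerol channel of fat cells, had 8 counts in YAP5SA and 0 in controls, and the exact 95% interval of the ratio, for counting error only, began at 1.74. Mip, the aquaporin of the eye lens, had 3 counts in YAP5SA and 2 in controls, and Aqp12, known from the pancreas, had 0 counts in all 8 libraries, a limit of 0.0454 CPM in YAP5SA and 0.0446 CPM in controls.

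Aquaporins follow the gradients that ion transporters build, and of 23 genes of ion transport for epithelial fluid movement 18 were tested. Of these 4 were higher, 11 were lower and 3 missed the threshold, with a median log2 fold change of -0.474 against 0.00412 for all tested genes. Of all tested genes 23.6% were called higher and 25.5% lower, so the share called lower among these 18 is above that background and was not tested against it. The chloride channels of secretion fell: Cftr averaged 5.59 ± 1.28 CPM in YAP5SA and 71.3 ± 5.1 CPM in controls, and Ano1, the calcium-activated chloride channel, averaged 47.3 ± 4.5 CPM in YAP5SA and 212.1 ± 16.9 CPM in controls. The sodium-proton exchanger genes Slc9a4 and Slc9a2 averaged 0.308 ± 0.139 and 0.108 ± 0.110 CPM in YAP5SA, against 60.5 ± 11.3 and 13.4 ± 1.1 CPM in controls. Slc12a2, which loads cells with chloride, fell by 0.42 on the log2 scale. Among the genes that rose were subunits of the epithelial sodium channel, with Scnn1a at 177.2 ± 3.9 CPM in YAP5SA and 43.3 ± 7.2 CPM in controls, and Scnn1g at 1.72 ± 0.61 CPM in YAP5SA and 0.101 ± 0.090 CPM in controls. The potassium channel gene Kcnn4 rose as well (4.38 ± 0.51 CPM in YAP5SA, 1.115 ± 0.597 CPM in controls).

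Of 15 tested genes of cell volume and the osmotic response, 5 were higher, 7 were lower and 3 missed the threshold, with a median log2 fold change of -0.169. Among all tested genes 49.1% were called. Of the subunits of the volume-regulated anion channel, Lrrc8c fell (2.18 ± 0.29 CPM in YAP5SA, 15.7 ± 1.2 CPM in controls) and Lrrc8b fell, Lrrc8d and Lrrc8e rose, and Lrrc8a, the subunit that every such channel needs, averaged 12.5 ± 2.1 CPM in YAP5SA and 14.8 ± 2.9 CPM in controls (adjusted p = 0.198, edgeR). Stk39, a kinase that acts on chloride cotransporters, averaged 96.5 ± 4.9 CPM in YAP5SA and 192.4 ± 9.4 CPM in controls, and the potassium-chloride cotransporter gene Slc12a7 averaged 11.5 ± 2.0 CPM in YAP5SA and 25.1 ± 0.8 CPM in controls. The taurine transporter gene Slc6a6 fell by 0.69 on the log2 scale. Nfat5, the transcription factor of the response to high osmolarity, rose (133.9 ± 3.2 CPM in YAP5SA, 73.7 ± 16.3 CPM in controls).

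Genes that handle glycerol, the second solute of Aqp3 and Aqp9, were called about as often as the background: of 10 tested, 2 were higher, 3 were lower and 5 missed the threshold (median log2 fold change -0.108), where 49.1% of all tested genes were called. Gpd2, the mitochondrial glycerol-phosphate dehydrogenase gene, averaged 169.9 ± 6.7 CPM in YAP5SA and 300.0 ± 23.2 CPM in controls, and the cytosolic relative Gpd1l fell by 0.36 on the log2 scale. The lipase genes Pnpla2 and Lipe, whose enzymes release fatty acids from stored fat, rose with log2 fold changes of 0.40 and 0.36. Gk, the glycerol kinase gene, averaged 103.2 ± 4.5 CPM in YAP5SA and 120.9 ± 11.3 CPM in controls.

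The dystrophin and syntrophin genes were measured well although Aqp4 was not: of 8 tested, 3 were higher, 4 were lower and 1 missed the threshold (median log2 fold change -0.0885), where 23.6% of all tested genes were called higher and 25.5% lower. Sntb1, a syntrophin gene, averaged 35.0 ± 3.3 CPM in YAP5SA and 79.4 ± 3.4 CPM in controls, and Dmd, the dystrophin gene, averaged 28.4 ± 2.3 CPM in YAP5SA and 50.1 ± 1.5 CPM in controls. Dtna and Dtnb, the dystrobrevin genes, went opposite ways, with Dtna at 3.03 ± 0.85 CPM in YAP5SA and 25.4 ± 0.8 CPM in controls, and Dtnb at 38.7 ± 2.1 CPM in YAP5SA and 23.6 ± 2.1 CPM in controls.

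**Figure D3:**
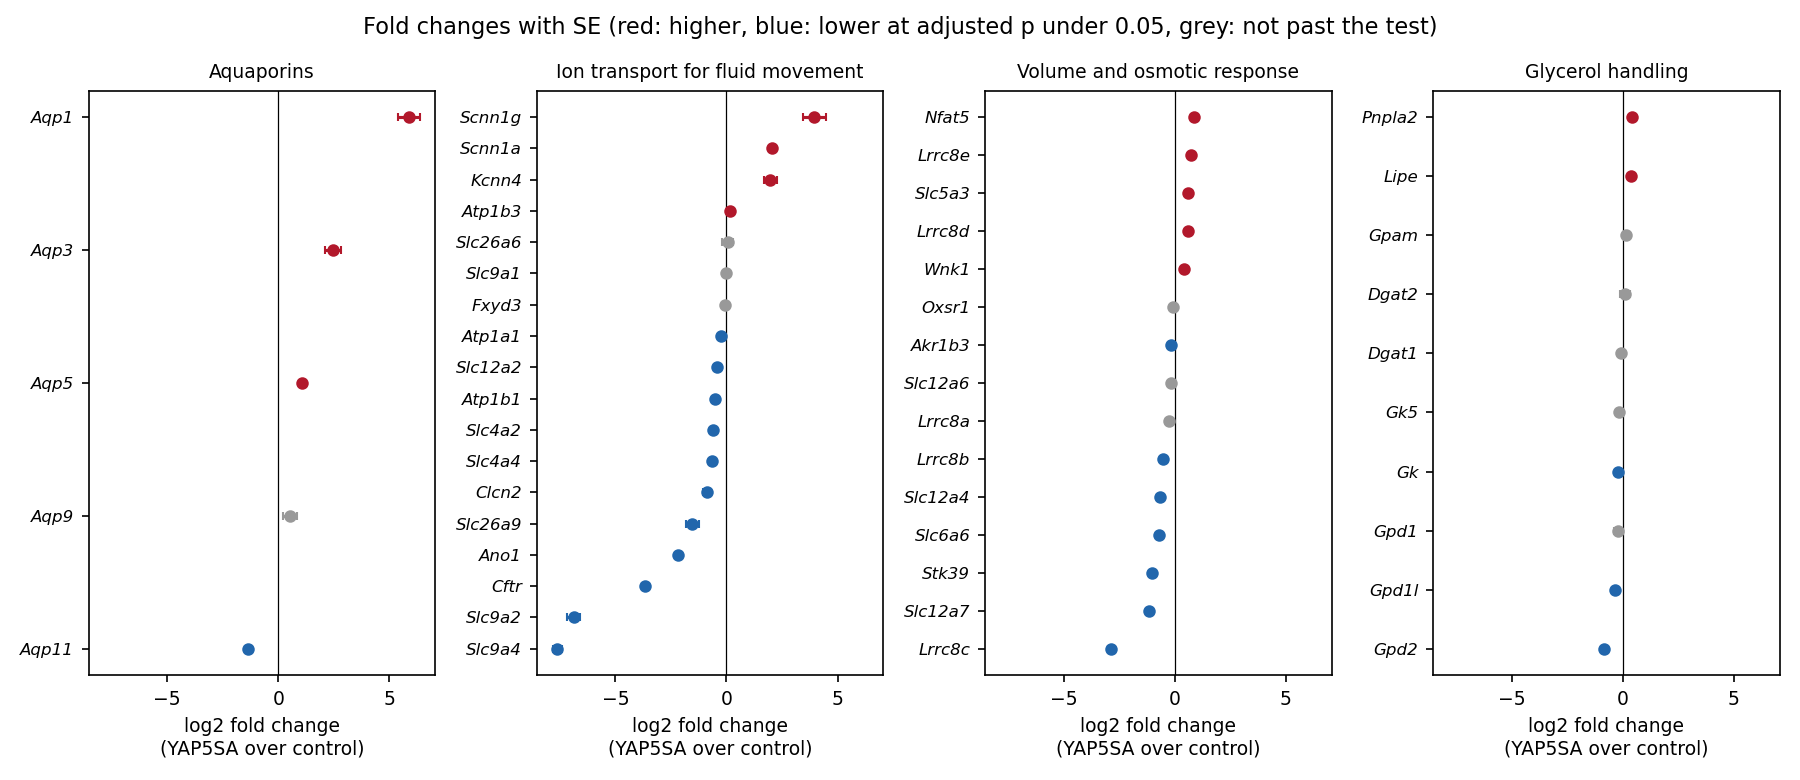
Log2 fold changes, YAP5SA over control, with SE (horizontal axis, shared) for the tested aquaporins and for tested genes of ion transport, cell volume and glycerol handling. Red marks genes that passed the test as higher, blue genes that passed as lower and grey the others; Aqp1 at 5.87 has the highest value shown and Slc9a4 at -7.61 the lowest.

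Likeness of pattern was measured as the root mean square difference of log2 CPM, each gene centred on its own mean over the 8 libraries. The 3 genes nearest to each called aquaporin, with unnamed gene models passed over, are given as a description. The measure takes in the difference between groups, so a near gene need not share the spread among YAP5SA libraries. Nearest to Aqp1 were Sema3a, a secreted guidance protein gene, Aif1l and Lbp, at 0.436, 0.454 and 0.495. Sema3a averaged 89.5 ± 8.7 CPM in YAP5SA and 1.77 ± 0.13 CPM in controls. Nearest to Aqp5 were Thsd4, H2ax and Ivd, at 0.0319, 0.0779 and 0.0801, and Thsd4 averaged 88.1 ± 7.2 CPM in YAP5SA and 42.2 ± 3.3 CPM in controls. Nearest to Aqp3 were Cald1, Upk3b and Tnfaip2, at 0.335, 0.403 and 0.421, and nearest to Aqp11 were Plce1, Cnp and Card10, at 0.131, 0.132 and 0.133.

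**Figure D4:**
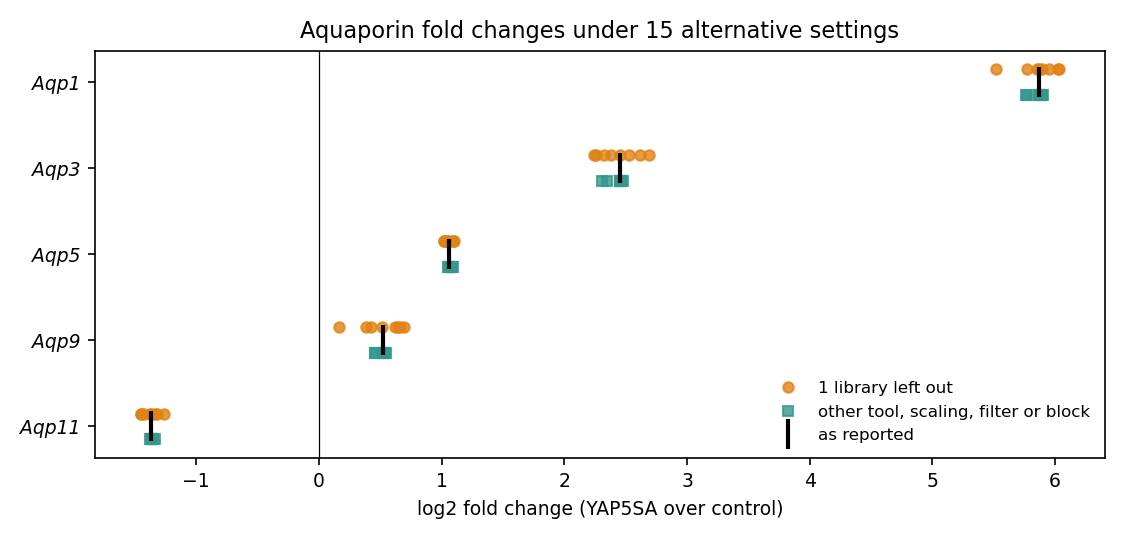
Log2 fold change of each tested aquaporin, YAP5SA over control (horizontal axis), as reported (black line), with 1 library left out (circles) and under other tools, scalings, filter or block (squares). Each gene keeps its sign, and Aqp9 comes nearest to 0, at 0.16.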

How the data were processed

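The labels' protocols give paired-end sequencing of 150 bp from each end for the 8 libraries. The deposited values are whole-number read counts per gene, not normalized by the authors as far as the values show. Cutadapt, HISAT2 2.0.1, HTSeq 0.6.1 and build mm9 are named in the submitters' processing notes. The sources used here name no annotation, counting options or strand setting. Of 56691 rows, 2639 without a gene name (0.190% to 0.221% of a library's counts) were left out, and 959 rows sharing 77 symbols were summed. In GENCODE M21 no other gene's exons overlap those of the 8 aquaporins.

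Genes were kept by edgeR's filterByExpr (minimum count 10, minimum total 15), then scaled by TMM. The quasi-likelihood test was that of edgeR 4.0.16 (R 4.3.3, robust glmQLFit, then glmQLFTest). Genotype was its single term, with Benjamini-Hochberg adjustment over 14058 genes. SE is the log2 fold change over the square root of F. CPM use TMM-scaled sizes of the tested genes. Alternatives were DESeq2 1.42.0, limma-voom 3.58.1, RLE or no scaling, no filter, a threshold of 0.01, each library left out, and a replicate block. Exon lengths are unions of exons in GENCODE M21, a newer build than that of the counts. Intervals and floors (3 counts) cover counting error alone: without molecular identifiers, reads are not independent molecules. The members and lists were chosen with earlier results of these data known. Named genes are the aquaporins, and in each list with 3 or more calls the 4 (or fewer) called genes of lowest adjusted p. The 3 genes nearest in pattern to each called aquaporin are also named, among genes whose average log2 CPM was 3 or more. Unnamed gene models were passed over in that search. In the cell type lists described here, markers at 0 in all libraries are named as well. So is the most abundant marker, except in the erythroid and immune lists. Slc12a2, Scnn1a, Scnn1g, Kcnn4, Lrrc8a, Lrrc8b, Lrrc8d, Lrrc8e, Nfat5 and Gk were named after their values were seen. So were the endothelial, neutrophil, squamous, mucous and parietal markers outside these rules, and the neighbours of aquaporin genes. Libraries of a group differed by more than counting noise, so none was counted as a second sequencing of another. That cannot show whether they came from separate cultures or embryos.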

Additional observations from a re-analysis of the deposited data

How the results depend on the processing

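The 4 called aquaporins kept their direction and their call under all 15 alternatives. The log2 fold change lay between 5.52 and 6.03 for Aqp1, between 2.24 and 2.69 for Aqp3, between 1.02 and 1.10 for Aqp5 and between -1.45 and -1.26 for Aqp11, and their highest adjusted p was 0.00305 (Aqp1, limma-voom). Aqp9 lay between 0.16 and 0.69 and passed without a filter on low counts (adjusted p = 0.00935, edgeR) and under no other alternative. Without that filter Aqp7, with 8 counts in YAP5SA and 0 in controls, also passed (adjusted p = 0.0479, edgeR). Adjusted p from that fit are not on the scale of the main fit. For Aqp5 the log2 fold change was 1.08 there and 1.06 in the main fit. The adjusted p of Aqp5 was 3.1e-82 there and 1.76e-10 in the main fit (edgeR quasi-likelihood test). The values given without the filter for Aqp2, Aqp4, Aqp7 and Aqp9 carry this limit. Replicate numbers were not used as pairs in the main test. The deviations of same-numbered libraries correlated at -0.124, -0.131, 0.101 and 0.0209, which shows no strong shared deviation and cannot exclude a shared preparation. With the replicate number as a block, 3192 genes were called higher and 3394 lower, against 3315 and 3584 without it, and Aqp1 had a log2 fold change of 5.77. With the shortest coding transcript as length, chosen after seeing the data, the mean share of Aqp5 in the summed aquaporin level was 93.3% in YAP5SA and 95.8% in controls, and that of Aqp1 was 5.41% in YAP5SA and 0.203% in controls. Depth limits Aqp4, Aqp6 and Aqp8, which had 4, 2 and 0 counts over the YAP5SA libraries and 16, 1 and 5 over the controls. With 1 library left out, which was tried after seeing the data, the ratio of pooled levels lay between 0.0877 and 0.389 for Aqp4 and between 2.40 and 7.79 for Aqp2. Sex coincides with genotype in all libraries.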

Other observations

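The aquaporin genes that lie next to each other on a chromosome did not have like levels. Aqp2, Aqp5 and Aqp6 follow one another on chromosome 15 in RefSeq's order of protein-coding genes. Aqp5 stood at 667.5 ± 63.7 CPM in YAP5SA and 320.5 ± 15.8 CPM in controls, while Aqp2 averaged 0.460 ± 0.161 CPM in YAP5SA and 0.141 ± 0.165 CPM in controls, and Aqp6 averaged 0.0308 CPM in YAP5SA and 0.0127 CPM in controls. Racgap1, the next gene after Aqp6, which encodes a regulator of cell division, had a log2 fold change of 0.66 ± 0.06 (SE). Faim2, the gene before Aqp2, had one of 1.52 ± 0.22 (SE). On chromosome 4, Aqp7 and Aqp3 are neighbours, with 8 counts of Aqp7 and 289 counts of Aqp3 in YAP5SA, against 0 and 53 counts in controls.

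The genes on either side of Aqp1 on chromosome 6 changed less or were hardly detected. Mindy4 averaged 4.08 ± 0.41 CPM in YAP5SA and 2.76 ± 0.52 CPM in controls (log2 fold change 0.55 ± 0.19 SE), and Ghrhr, the receptor gene for growth hormone releasing hormone, averaged 0.149 ± 0.103 CPM in YAP5SA and 0 CPM in controls. Beside Aqp11 on chromosome 7, Clns1a had a log2 fold change of -0.04 ± 0.06 (SE), and Pak1 one of -0.92 ± 0.08 (SE).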
